A study of Mus musculus with 2 samples.

Results

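Aminoacyl-tRNA synthetases are the enzymes that attach each amino acid to its transfer RNA, and their genes were examined here for binding of YY1, a zinc-finger transcription factor. The 36 genes followed were taken by name from the annotation, 20 for enzymes that serve the cytosol and 16 for enzymes that serve mitochondria, out of 21938 protein-coding genes on the nuclear chromosomes. A gene was counted as bound when the summit of a YY1 peak, its highest point, lay within 1000 bp of the start of any of its transcripts. The peaks came from 1 ChIP-seq library, in which DNA held by YY1 in muscle stem cells (MuSCs) was recovered with a YY1 antibody and sequenced.

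The study describes the cells as freshly isolated MuSCs, mixed from Ctrl mdx mice (Pax7CreERT2/R26YFP, Yy1+/+, mdx), a strain that lacks dystrophin and in which a YFP reporter under a Pax7-driven inducible Cre marks the cells for sorting. In its main design the study gave tamoxifen to Ctrl mice as well as to mice with Yy1 deleted. It does not state separately whether the mice of this library received it. The sample labels instead speak of wild-type MuSCs and of culture, and the age of these mice was not given in the sources used here. Peaks were called against 1 background library, named input in the labels and IgG in the methods. There are no replicates, and a peak list does not measure expression, so neither the variation between mice nor the identity of the cells could be checked from it.

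Every tissue needs these enzymes, since no protein can be made without charged tRNA. The nuclear genome encodes separate sets for the cytosol and for mitochondria, with a few exceptions such as Kars and Gars, whose single genes serve both compartments. Eprs, which joins the glutamyl and prolyl enzymes in 1 protein, and the enzymes for aspartate, isoleucine, leucine, lysine, methionine, glutamine and arginine assemble with scaffold proteins into a multi-synthetase complex. Many cytosolic synthetase genes are also known targets of ATF4, the transcription factor that is induced when amino acids run short. YY1 is known to bind near the start sites of many widely expressed genes, at a motif written here as AANATGGC.

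YY1 peaks stood at 10 of the 36 synthetase genes (27.8%), while 18.8% of all protein-coding genes were bound by the same rule. The bound cytosolic genes were Dars, Eprs, Mars, Tars, Vars, Wars and Yars, which is 7 of 20 (35%). The bound mitochondrial genes were Ears2, Fars2 and Rars2, which is 3 of 16 (18.8%). The mitochondrial share was thus the same as that of protein-coding genes at large, and the cytosolic share was higher, but no test was made of these shares because the genes of a list are not replicates. No gene of the 36 had more than 1 promoter peak.

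**Figure D1:**
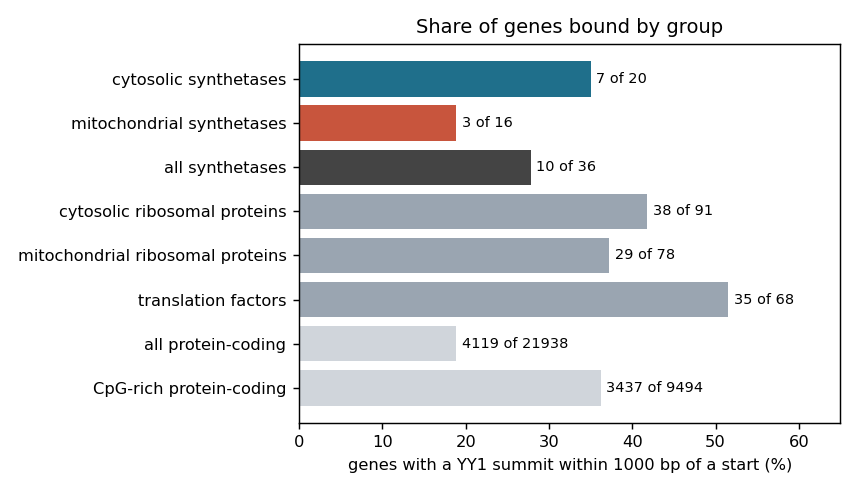
Share of genes with a YY1 summit within 1000 bp of a transcript start (x axis, percent), with the number bound of the number in each group printed beside each bar. The cytosolic synthetase bar (7 of 20) is longer than that of all protein-coding genes (18.8%), the mitochondrial bar (3 of 16) is as long as it, and both are shorter than those of CpG-rich genes (36.2%), ribosomal protein genes and translation factor genes.

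The share of bound genes differed with the kind of promoter. Promoters rich in the dinucleotide CpG, typical of widely expressed genes, were taken as those with a CpG content of at least 0.6 of the expected content and at least 50% G or C, from 250 bases before to 50 bases after the start. Of all CpG-rich protein-coding genes 36.2% were bound. Among the synthetase genes 30 of 36 were CpG-rich, and 9 of these 30 (30%) were bound, a share below that of CpG-rich genes in general. The remaining bound gene, Wars, fell short of the limit over its 3 starts together, although the start at its peak had a CpG content of 0.862 of the expected content. Genes of the neighbouring steps of protein synthesis had higher shares, with 38 of 91 cytosolic ribosomal protein genes (41.8%), 29 of 78 mitochondrial ribosomal protein genes (37.2%) and 35 of 68 translation factor genes (51.5%). These are descriptions of 1 peak list.

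Of the 8 enzymes of the multi-synthetase complex 3 were bound (Dars, Eprs and Mars; 37.5%), and of the other 12 cytosolic genes 4 were bound (33.3%). Both shares were above the 18.8% of all protein-coding genes and close to the 36.2% of CpG-rich ones, although 15 of the 20 cytosolic genes, not all, were CpG-rich. The genes of the 3 scaffold proteins of the complex, Aimp1, Aimp2 and Eef1e1, had no promoter peak.

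The fold enrichment of a peak is the number of fragments at its summit plus 1, divided by the local background plus 1. The fragments were recovered from the deposited values, and the intervals given are 95% exact Poisson intervals of the fragments, which take the background as exact and cover counting error only. Coordinates are those of mm10. Dars, the aspartyl enzyme, had the highest value of the group, where the peak chr1:128416986-128417502 counted 18 fragments against a local background of 1.98, a fold enrichment of 6.39 (3.92 to 9.9). It was followed by Tars, the threonyl enzyme (chr15:11399544-11399891), and Wars, the tryptophanyl enzyme (chr12:108894063-108894386), each with 15 fragments over 1.54 and a fold enrichment of 6.31 (3.71 to 10.2). Of the 3777 promoter peaks of protein-coding genes, 81% had a lower value than Dars and 78.5% a lower value than Tars and Wars. The intervals of these 3 peaks include the median of the promoter peaks, 5.13, so their rank is not resolved by the counts.

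Eprs (chr1:185362873-185363102) had the most fragments, 21, but over a higher background of 2.96, and its fold enrichment was 5.55 (3.53 to 8.35). Vars, the valyl enzyme (chr17:35000708-35001090), held 18 fragments over 2.76 with a fold enrichment of 5.05 (3.1 to 7.83). Mars, the methionyl enzyme (chr10:127311555-127311926), held 12 fragments over 1.7 with a fold enrichment of 4.82 (2.67 to 8.14). These values lay around the median of promoter peaks, 5.13.

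Yars, the tyrosyl enzyme (chr4:129189612-129189923), showed how the background sets the value. It held 16 fragments, the median number of the group, but its background of 3.95 was the highest, and its fold enrichment of 3.43 (2.05 to 5.45) was the lowest of the 10.

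Among the mitochondrial enzymes, Ears2, which charges tRNA with glutamate (chr7:122066367-122067437), held 16 fragments over 1.91 with a fold enrichment of 5.84 (3.48 to 9.27). Rars2, the arginyl enzyme (chr4:34614778-34615025), held 16 fragments over 2.34 with a fold enrichment of 5.1 (3.04 to 8.09). Fars2, the phenylalanyl enzyme (chr13:36117411-36117625), held 9 fragments over 1.54 with a fold enrichment of 3.94 (2.02 to 7.13). Fars2 was the weakest site by counts and by q-value, at 0.012, and the only one of the 10 with a q-value above 0.01, the others ranging from 1.41e-08 at Dars to 0.00279 at Yars.

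The median fold enrichment over the 10 peaks was 5.32, against 5.13 over all promoter peaks of protein-coding genes, and 5 of the 10 lay above the latter. Of the 45 pairs of peaks none had intervals that did not overlap, so the order from Dars to Yars is not resolved by the counts. A limit of at least 5 on the fold enrichment kept 7 of the 36 genes (19.4%) and 11.1% of protein-coding genes, and removed Mars, Yars and Fars2.

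**Figure D2:**
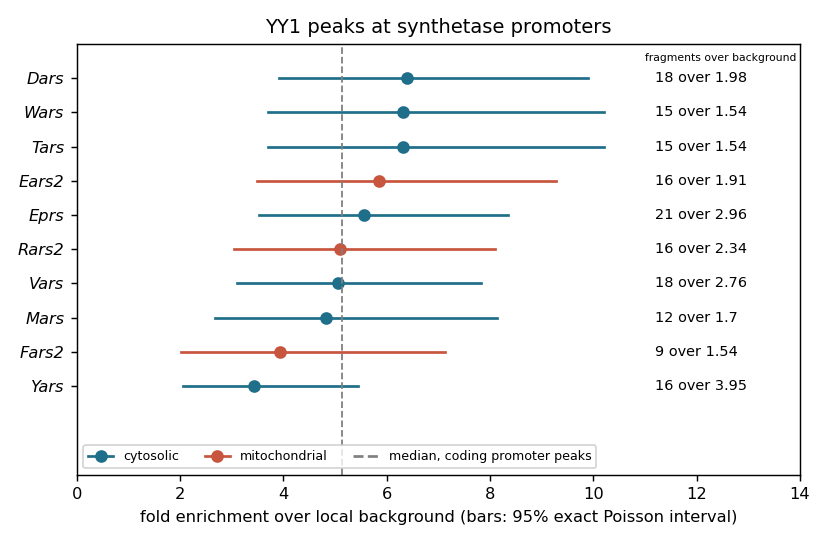
Fold enrichment over the local background (x axis) of the YY1 peak at each bound synthetase gene, as points with 95% exact Poisson intervals of the fragments at the summit, coloured by compartment. Fragments and background are printed at the right, and the dashed line is the median of promoter peaks of protein-coding genes, 5.13. The values run from 3.43 at Yars to 6.39 at Dars, and every interval overlaps every other.

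**Figure D3:**
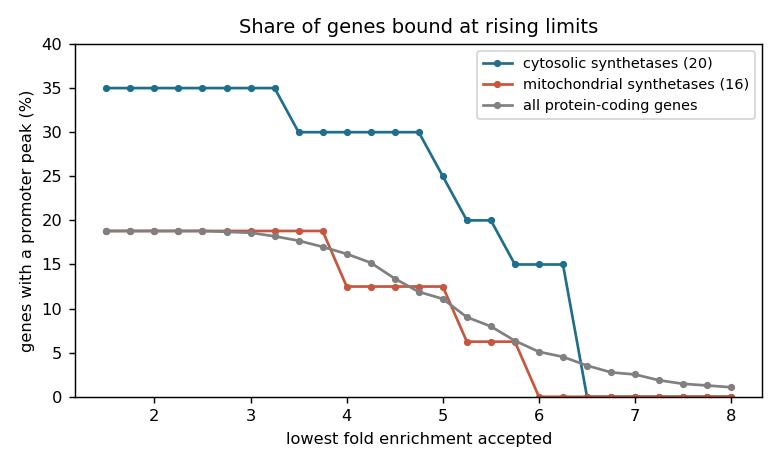
Share of genes with a promoter peak (y axis, percent) as the lowest accepted fold enrichment rises (x axis), for 20 cytosolic and 16 mitochondrial synthetase genes and all protein-coding genes. The cytosolic line starts at 35%, stays above the other lines up to a limit of 6.25 and reaches 0 at 6.5. At 6.25 its 15%, against 4.53% of all protein-coding genes, rests on Dars, Tars and Wars alone. The mitochondrial line starts at 18.8% and reaches 0 at 6.

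The summits lay close to the start sites, with a median distance of 77.5 bp against 104 bp for all bound protein-coding genes. The nearest was Yars, 12 bp downstream of its start, and the farthest Ears2, 201 bp downstream. Of the 10 summits 5 lay upstream of the start (Eprs, Tars, Vars, Wars and Rars2) and 5 downstream. Peak widths ranged from 215 bp at Fars2 to 1071 bp at Ears2, with a median of 336 bp against 363 bp for promoter peaks in general. The rule left no borderline gene: the member just inside the limit was Ears2 at 201 bp, and the member just outside it was Cars2, whose nearest summit lay 5127 bp from its start.

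Of the 10 summits, 6 lay within 1000 bp of the start of a further gene, and in each case that gene was transcribed in the opposite direction. Of all promoter peaks of protein-coding genes 30.5% were shared in this sense with any other gene. Wars shared its peak with Wdr25, the summit lying 39 bp upstream of Wars and 59 bp upstream of Wdr25 in the 98 bp between them. Rars2 shared its peak with Orc3, a subunit of the origin recognition complex, with the summit 69 bp upstream of Rars2 and 25 bp downstream of the nearest Orc3 start, inside Orc3. Fars2 shared its peak with Lyrm4, a gene of iron-sulfur cluster assembly, with the summit 159 bp downstream of Fars2 but 45 bp upstream of Lyrm4.

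Ears2 shared its peak with Ubfd1, and there both genes overlap at their starts, so that the summit lay 201 bp downstream of Ears2 and 113 bp upstream of Ubfd1. All 3 bound mitochondrial genes thus shared their summit with a protein-coding gene on the opposite strand. The remaining shared peaks were those of Yars with S100pbp (summit 45 bp upstream of S100pbp) and of Eprs with the lincRNA gene 4930532G15Rik (summit 60 bp upstream of it). At these 6 sites the peak list cannot assign the binding to one gene or the other. Dars, Mars, Tars and Vars had their peaks to themselves.

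A divergent partner was defined, after these pairs were seen, as a start on the opposite strand from 1000 bp upstream to 100 bp downstream. By this rule 13 of the 36 synthetase genes had a partner, and 6 of these 13 (46.2%) were bound, against 38.7% of all protein-coding genes with a partner. Of the 23 without a partner 4 were bound (17.4%), against 15.2% of protein-coding genes without one. The difference between both kinds of promoter was thus present in protein-coding genes at large. Not every divergent synthetase promoter was bound. Hars and Hars2, the cytosolic and the mitochondrial histidyl enzymes, start 26 bp apart on opposite strands, and the nearest summit lay 113 kb away. Kars with Terf2ip (75 bp apart) and Sars2 with Mrps12 (182 bp apart) had no promoter peak either.

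The reference sequence around the summits is shown for Eprs, Vars and Wars, whose windows of 30 bases to each side hold no start, to show what YY1-bound synthetase promoters look like when the YY1 motif is missing. The sequences are from RefSeq's GRCm38.p6 assembly, the build of the peak list (mm10), on the strand of the synthetase gene, with the summit base in capitals.
Eprs (chr1:185362895-185362955, plus strand): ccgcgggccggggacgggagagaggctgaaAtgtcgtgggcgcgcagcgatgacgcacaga
Vars (chr17:35000866-35000926, plus strand): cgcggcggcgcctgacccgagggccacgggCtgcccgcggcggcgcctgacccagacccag
Wars (chr12:108894183-108894243, minus strand): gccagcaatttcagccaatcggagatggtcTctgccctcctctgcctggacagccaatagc

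None of the 10 peaks held AANATGGC within 100 bp of its summit, on either strand, while 7.55% of all promoter peaks of protein-coding genes did. At a share of that size, 0 of 10 peaks cannot be told apart from it, and nothing follows about how YY1 came to these sites. The motif was also absent from the whole length of the 10 peaks (14.9% of promoter peaks held it), and the shorter form AANATGG was found within 100 bp of 0 of 10 summits (10.1% of promoter peaks). The core ATGGC alone was present at 2 of 10 (20%), Ears2 and Rars2, against 30.6% of promoter peaks. At Rars2 the summit base is part of the core, and at Ears2 the nearest base of the core lay 19 bp from the summit and its ATG is the annotated start codon of Ears2. Both are shown on the strand of the gene, with ATGGC or its reverse complement GCCAT in capitals.
Ears2 (chr7:122067027-122067055, minus strand): tttctagtccacATGGCggcgcccctcaa
Rars2 (chr4:34614872-34614900, plus strand): acggaggaggtgGCCATagtccgcggccc

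The full motif was, by contrast, frequent in synthetase promoters as such. Within 250 bases before to 50 bases after a start, AANATGGC occurred in 10 of the 36 genes (27.8%), against 9.07% of all protein-coding genes, and in 6 of the 16 mitochondrial genes (37.5%). Of these 10 genes 2, Yars and Fars2, were bound (20%), against 29.7% of all protein-coding genes with the motif in the promoter. Of the 26 genes without it 8 were bound (30.8%). Counts this small cannot be told apart from the general share. At Yars the nearest base of the motif lay 166 bp from the summit, outside the peak, and at Fars2 it lay 307 bp from the summit beside another start of the gene. The motif sites and the YY1 peaks of these promoters thus did not coincide.

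In the mitochondrial genes the motif began at or just downstream of a start. In Aars2, Fars2, Lars2, Sars2, Wars2 and Yars2 it ran in the direction of the gene and began between positions 1 and 21, counting the base of the nearest annotated start as 1, which for Fars2 is not the start at its peak. In 4 of these (Aars2, Sars2, Wars2 and Yars2), and in Kars among the cytosolic genes, the ATG inside the motif is an annotated start codon, so that the motif spans the beginning of the coding sequence. That was so in 5 of the 36 genes (13.9%) and in 1.96% of all protein-coding genes. None of these 5 was bound, against 29.8% of all protein-coding genes with the motif at the start codon. The sites are shown on the strand of the gene, with the motif in capitals.
Aars2 (chr17:45506841-45506868, plus strand): gcccggagctAAGATGGCggtggcgttg
Fars2 (chr13:36117868-36117895, plus strand): tcttcccgtcAAGATGGCggcgcccagc
Lars2 (chr9:123366937-123366964, plus strand): ttgttttgccAACATGGCggcgcccaga
Sars2 (chr7:28742003-28742030, plus strand): tttccactccAAGATGGCtgcgtccatg
Wars2 (chr3:99141086-99141113, plus strand): cgcccttctcAAGATGGCgctgttctct
Yars2 (chr16:16302971-16302998, plus strand): cgtgtcccgcAAGATGGCggcgcccatg
Kars (chr8:112011254-112011281, minus strand): gccagtggggAAGATGGCcacgctgcag

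In the remaining cytosolic genes with the motif its place differed. Farsa, a subunit of the cytosolic phenylalanyl enzyme, carried 2 copies in the direction of the gene, beginning 97 and 52 bases before the start, and Nars, the asparaginyl enzyme, carried 1 copy beginning 17 bases before a start. In Yars the motif ran against the gene and began 161 bases before the start. A match is a description of letters and not a measured site.
Farsa (first copy, chr8:84856882-84856909, plus strand): tgccacacttAAGATGGCgacgaccagc
Farsa (second copy, chr8:84856927-84856954, plus strand): cgccacactaAAAATGGCaacgcacgcg
Yars (chr4:129189589-129189616, plus strand): cgccccctgcGCCATTTTatcgccccct

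**Figure D4:**
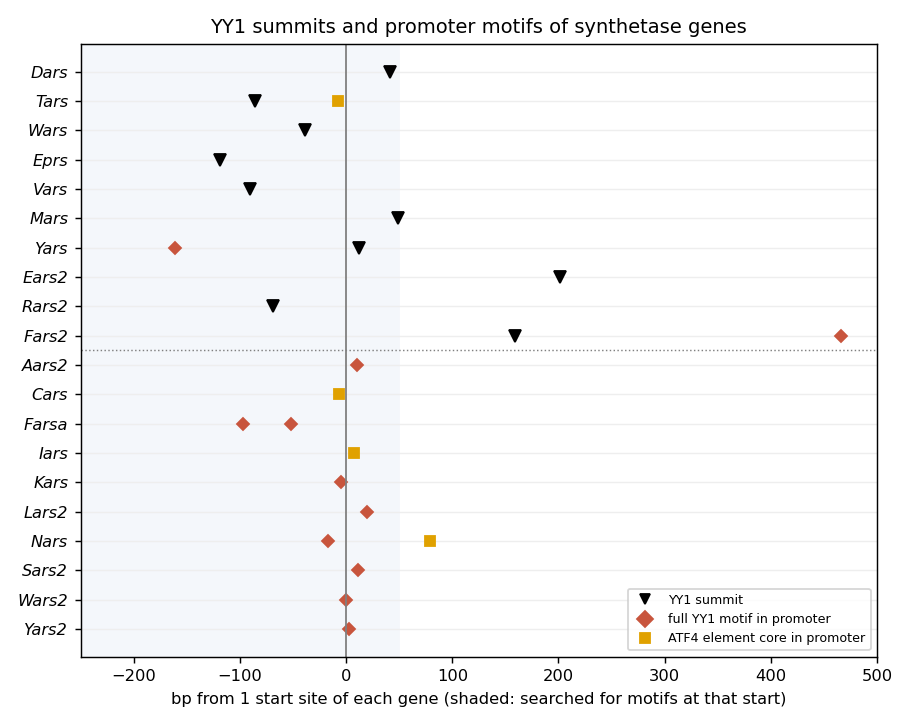
Position in bp from 1 start site of each gene (x axis, the start of the summit for bound genes above the dotted line, the start beside the first motif for the genes below it) of YY1 summits (triangles), full YY1 motifs (diamonds) and ATF4 element cores (squares, for 4 of the 5 genes that hold it). The 10 summits lie between 119 bp upstream and 201 bp downstream, and the only bound genes with a full motif are Yars and Fars2, where its nearest base lies 166 and 307 bp from the summit.

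The element that ATF4 recognises together with C/EBP factors was searched by its core TGATGCAA in the same window and on both strands. It was found in 5 of the 36 genes (13.9%), against 1.26% of all protein-coding genes, and all 5 are cytosolic, Cars, Iars, Nars and Tars among them. Tars was the only bound gene among them (20%), and of all protein-coding genes with this core 6.14% were bound. At Tars both features stand in 1 promoter: the summit lies 86 bp upstream of the start, and the element is made of the last 8 bases before it. In Cars, Iars and Tars the core runs against the gene and is read as TTGCATCA, beginning 7 and 8 bases before the start in Cars and Tars and at position 8 in Iars. The core is in capitals, and for Tars the 250 bases before the start are given.
Cars (chr7:143600046-143600073, minus strand): ggcgccgcggTTGCATCAgattctggaa
Iars (chr13:49682127-49682154, plus strand): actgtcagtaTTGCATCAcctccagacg
Tars (chr15:11399666-11399915, minus strand): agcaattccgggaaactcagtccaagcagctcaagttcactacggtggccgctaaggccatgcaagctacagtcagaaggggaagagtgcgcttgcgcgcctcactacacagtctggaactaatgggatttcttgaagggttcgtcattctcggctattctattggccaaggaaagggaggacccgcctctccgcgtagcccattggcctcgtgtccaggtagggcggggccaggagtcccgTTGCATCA

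The 26 synthetase genes without a promoter peak lay at widely differing distances from the nearest summit. No such distances are given here for other unbound protein-coding genes. The distance from a start to the nearest summit had a median of 109 kb, was over 100 kb for 14 genes, and reached 2671 kb at Rars, the cytosolic arginyl enzyme. For 4 genes it was within 15 kb, and in each case the summit stood at the promoter of another gene. These were Cars2 (5127 bp, at Ing1), Qars (9045 bp, at Qrich1), Farsa (9756 bp, at Calr) and Lars (13461 bp, at Rbm27). The nearest summit to Iars2, the mitochondrial isoleucyl enzyme, was that of Eprs, 33.5 kb away. Summits lay between 22.5 and 95.1 kb from Aars, Pars2, Iars, Aars2, Tars2, Sars2 and Lars2, and those nearest to Aars and Lars2 stood inside the genes themselves. They lay between 106 and 713 kb from Mars2, Hars, Hars2, Sars, Farsb, Vars2, Gars, Kars, Nars, Nars2, Yars2, Cars and Wars2. The promoters of the 26 genes had a median CpG content of 0.763 of the expected content and 56.6% G or C, against 0.831 and 62.2% in the 10 bound genes.

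The depth was estimated, not measured, as 13357713 fragments from the most frequent background in the list (1.54 fragments). This estimate took the narrowest peak, 215 bp, as the fragment length and a fixed genome size. The study gives nearly the same number of uniquely mapping reads. At that background a summit needed at least 8 fragments to pass the p-value limit of MACS2, and more where the background was higher. A promoter without a peak was therefore one where no such pileup was found, not one shown to be free of YY1. The signal below the limit was not analysed here.

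Synthetase genes held 2 further peaks outside their promoters. In Aars, the cytosolic alanyl enzyme, a summit in exon 21 lay 1239 bp before the 3′ end and within 1000 bp of the start of Exosc6, a subunit of the RNA exosome, with 20 fragments over 2.97 and a fold enrichment of 5.29 (3.33 to 8.03). In Lars2, the mitochondrial leucyl enzyme, a peak on chromosome 9 from 123461880 to 123462182 lay in exon 21, with its summit 655 bp before the 3′ end and no gene start near it. It held 199 fragments over a background of 78, so that its fold enrichment was only 2.53 (2.19 to 2.91), although its q-value was 1.99e-25. Of the 4681 peaks 99.5% had a lower background and 1.35% a lower fold enrichment. The background library thus also piled up at this place, and the source of that pileup was not tested.

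Companion genes of tRNA charging were taken from lists that were chosen with earlier results of these data known. Of the 38 found in the annotation 12 were bound (31.6%), against 18.8% of all protein-coding genes and 36.2% of CpG-rich ones. In tRNA end processing and export, the longest of the lists, 6 of 14 genes were bound. These included Trnt1, which adds the CCA end that synthetases charge (fold enrichment 5.93, 3.48 to 9.54), Xpot, the exporter of tRNA from the nucleus (5.92, 3.41 to 9.66), and Elac1, an endonuclease of tRNA 3′ ends (5.19, 2.94 to 8.61), whose relative Elac2 was not bound. Of RNase P, which trims the 5′ ends of tRNA, Pop7, Pop1 and Rpp14 were bound (5.3, 4.03 and 4.04), the first at a summit shared with 9130604C24Rik and the second at one shared with Rida, while Rpp21, Rpp25, Rpp30, Rpp38, Rpp40, Pop4 and Pop5 were not.

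In the route to selenocysteine, which is built on its own tRNA, the kinase Pstk (fold enrichment 5.76, 3.49 to 9.03) and the synthase Sepsecs (4.7, 2.66 to 7.81) were bound, and Sephs2 and Eefsec were not. Of the mitochondrial amidotransferase that makes glutaminyl-tRNA, Qrsl1 was bound (4.34, 2.29 to 7.65), at a promoter shared with Rtn4ip1, and Gatb and Gatc were not. Among further synthetases and editing factors Tarsl2, a threonyl enzyme related to Tars, was bound (4.37, 2.42 to 7.38), and Aarsd1, Prorsd1, Dtd1 and Dtd2 were not.

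Of 9 genes of the amino acid response 2 were bound (22.2%), a share near the 18.8% of all protein-coding genes. Atf4 itself had a peak of 16 fragments over 2.55 with a fold enrichment of 4.79 (2.86 to 7.6), 339 bp downstream of its start. Cebpb, which encodes a partner of ATF4, held 21 fragments over 2.12 with a fold enrichment of 7.04 (4.48 to 10.6), 372 bp downstream of its start, higher than any of the 10 synthetase peaks although its interval overlapped theirs. Eif2ak4, the kinase that senses uncharged tRNA, and Gcn1l1, Ddit3, Trib3, Asns, Chac1 and Sesn2 had no promoter peak.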

How the data were processed

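Per the methods and labels, reads were trimmed and quality-filtered before bowtie2 mapping to mm10, duplicates were discarded, and the authors ran MACS2 (p-value limit 0.0001) on 1 YY1 library against 1 background library. The deposited list of 4681 peaks gives the fold enrichment, a ratio to the local background, with −log10 p-values and −log10 q-values that describe this pair of libraries only. Its score column, 10 times −log10 p as deposited by the authors, was not used, and its summit offset placed each summit. Fragments were recovered as whole numbers for 100% of peaks (−log10 p within 0.001).

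Summits were placed against GENCODE M21 basic transcript starts (GRCm38, nuclear chromosomes). Motifs were searched on both strands in the RefSeq GRCm38.p6 sequence. No gene list was tested, since there are no replicates. The members and lists were chosen with earlier results of these data known. All 36 members matched by symbol, and bound members are each described; genes outside the lists are named only where they share a summit, have the nearest one, or start beside a member. Ribosomal protein and translation factor genes were taken by symbol pattern among protein-coding genes. Alternatives were limits on q and fold enrichment, promoter windows, start sites, placement by overlap and motif forms. A promoter motif site and a companion gene are not reported here. Placement, motif search and fragment recovery were tested on simulated data. The tools were samtools 1.23.1 and Python 3.11.15 with matplotlib 3.10.9, pysam 0.24.0, scipy 1.17.1 and numpy 2.4.6.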

Additional observations from a re-analysis of the deposited data

How the results depend on the processing

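The 10 bound genes remained the same 10 with promoter windows of 500 or 2000 bp, gene-level starts, protein-coding transcripts only, all transcripts of the annotation, or any overlap of the peak. A fold enrichment of at least 5 removed Mars, Yars and Fars2 (7 left, with 11.1% of protein-coding genes bound). A q-value under 0.01 removed Fars2 (9 left, with 17.4% of protein-coding genes bound). A window of 1000 bp upstream to 100 bp downstream removed Ears2 (9 left, with 14.6% of protein-coding genes bound). No alternative added a gene. The share of protein-coding genes bound ran from 11.1% to 19.3%. The number of bound genes with the YY1 motif at the summit was 0 under every window and form tried except the core ATGGC, which gave 2. The form AANATGG was added after the data were seen. No paired analysis was possible because the design holds a single YY1 library. Depth, with 9 to 21 fragments at each of the 10 summits, limits how far the peaks can be ranked.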

Other observations

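Other promoter words near the 10 synthetase summits were counted after the values above were seen, within 100 bp of the summit and on both strands, beside the share over 3777 promoter peaks of protein-coding genes. A CCAAT box, the site of NF-Y, was present at 4 of the 10 summits (Tars, Wars, Yars and Ears2; 16.5% of promoter peaks). The Wars window printed above shows it in 2 copies. The letters CCGGAAG, bound by ETS factors, were present at 3 summits (Mars, Wars and Rars2; 13.7% of promoter peaks). TGACG, part of the cyclic AMP response element, was present at 5 (Eprs, Mars, Tars, Yars and Ears2; 26.1%), while the full element TGACGTCA was present at 0 (2.36%). The GC box GGGCGG was present at 6 (65.6%) and the NRF1 site at 1, Tars (12%). Dars and Vars had none of these 6 words. Each count rests on 10 windows and is a description.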
